A study of Mus musculus with 7 samples.

Results

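The 10 genes described here encode costimulatory and checkpoint molecules of the immune system, and were taken from 40743 listed genes by their symbols. Cd40, Cd80 and Cd86 encode costimulatory molecules of antigen-presenting cells. Cd274 (PD-L1), Pdcd1lg2 (PD-L2) and Pdcd1 (PD-1) form the PD-1 axis. Havcr2 (TIM-3), Lag3, Vsir (VISTA) and Cd200r1 encode inhibitory receptors. All 10 were found in the deposited table, each under its own Ensembl identifier and in an entry without reads listed jointly with another gene. Of these, 9 were abundant enough to be tested, and Pdcd1 was not.

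RNA of retinal microglia (rMG), the resident macrophages of the neuroretina, was sequenced from adult mice labelled Irf8 KO. Irf8 encodes interferon regulatory factor 8, a transcription factor of the myeloid lineage. Both groups were Irf8-/- on a C57BL/6J background without the Crb1 mutation and carried Cx3cr1GFP/+, a green fluorescent reporter of microglia and other myeloid cells. The sex of the mice is not given. In the unlasered group (3 libraries) the mice were untreated. In the lasered group (4 libraries) they received 3 to 6 laser spots per eye, the model of choroidal neovascularisation (CNV), and rMG were taken 7 days later. Each library was a pool of 3 to 4 mice, sorted as CD45low, CD11b+, Cx3cr1-GFP+, Ly6C- and Ly6G- cells. For lasered mice the central 70% of the retina was used, so that laser injury and the sampled region cannot be told apart. Wild-type libraries were not analysed here, and no difference described below is an effect of Irf8.

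T cells need a costimulatory signal beside the antigen that is presented to them. It is given by B7 molecules (CD80 and CD86) through CD28, and CTLA4 binds the same B7 molecules and limits the response. CD40 on antigen-presenting cells receives its signal from CD40L, while PD-1, TIM-3, LAG-3, VISTA and CD200R1 convey inhibitory signals, CD200R1 mainly in myeloid cells. In the healthy retina and brain, microglia are held in check through several such pairs, among them neuronal CD200 and microglial CD200R1.

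Libraries held 20427558 to 36022954 reads in the unlasered group and 37133297 to 45919042 reads in the lasered group. Values are CPM, the reads of a gene scaled to the same total of reads in every library, and 3 reads corresponded to 0.0653 to 0.147 CPM, which was taken as the floor and covers counting error only. Irf8 itself was read at 489 to 530 CPM in the unlasered and at 463 to 582 CPM in the lasered libraries. The part of the gene that was deleted is not given in the sources used here, so these reads over the whole gene do not check the label. The 10 microglia markers summed to 26611 to 31723 CPM in the unlasered and 23647 to 32351 CPM in the lasered libraries, and none was at the floor. Of the 6 markers of border macrophages, the related cells at vessels and membranes, the sum was 2173 to 2713 CPM in the unlasered and 1302 to 1575 CPM in the lasered libraries. Limma called 2 of the 5 tested lower (Pf4 and Ms4a7). Cbr2 went the other way (means 5.55 and 11.9 CPM, log2 fold change 1.06, adjusted p = 0.0799 with limma), and DESeq2 called it higher. The list includes Mrc1, whose protein the authors found raised in Irf8-deficient rMG themselves. The part of border macrophages in the results below was not tested. The 10 rod photoreceptor markers summed to 1561 to 15194 CPM in the unlasered and 237 to 826 CPM in the lasered libraries, and 9 of the 10 were called lower by the test described below. Genes of MHC class II stood apart in the lasered libraries 1 and 2, where H2-Ab1 reached 858 and 1497 CPM, against 114 and 28.6 CPM in the lasered libraries 3 and 4 and 9.49 to 79.4 CPM in the unlasered libraries. The T cell markers, by contrast, were close to zero. The 10 of them summed to 1.31 to 3.38 CPM in the unlasered and 0.784 to 3.14 CPM in the lasered libraries, and Cd3e and Trbc2 did not pass the floor in any library.

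Among the costimulatory and checkpoint genes, Lag3 was the only one to pass the test with limma after laser injury, and it was higher. Levels were compared on log2(CPM + 1) with limma over 17496 genes, and a gene was called where the p-value adjusted by the Benjamini-Hochberg method was under 0.05. Of all genes tested, 6.93% were called, 3.86% higher and 3.07% lower. Of the 10 molecules, 1 was called higher, none was called lower, and the other 8 tested were not called. At an unadjusted p under 0.05 there were 3 (Cd40, Cd80 and Lag3), of which Cd80 was lower, where 22.7% of all genes tested had such a p. The adjusted count was 2 with edgeR (Cd40 and Lag3, none lower), which called 7.24% of all genes, and 3 with DESeq2 (Cd80 lower), which called 13.3%. These 3 were also the only ones of the 9 tested members whose CPM did not overlap between the groups, compared with 21.0% of the genes tested. Cd40 passed the filter only through its lasered values, which favours its place in each of these counts in advance. The median log2 fold change of the 9 tested members was -0.13, and that of all genes tested was -0.01. In these sorted populations, fewer cells of a type and less RNA per cell cannot be told apart.

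**Figure D1:**
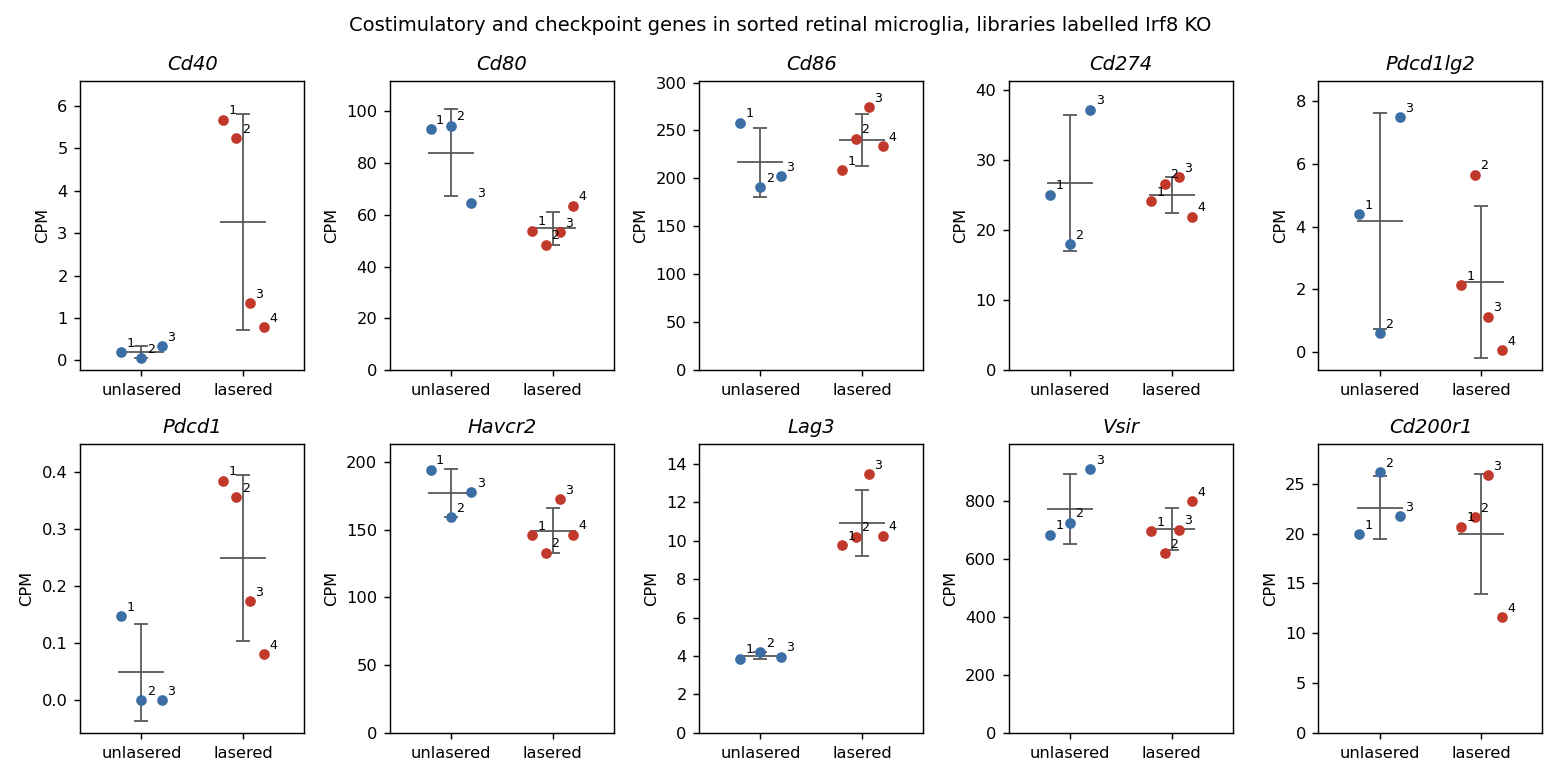
CPM of each of the 10 genes in each library, with a separate axis for each gene. Digits are the library numbers and the bars give the mean ± SD of 3 unlasered and 4 lasered libraries. Lag3 is near 4 CPM in all unlasered libraries and at 9.77 CPM or more in all lasered libraries, and Cd40 is highest in the lasered libraries 1 and 2.

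The 10 genes spanned a wide range of levels. Compared per kilobase of exon, Vsir was highest in both groups, with 154 CPM per kb in the unlasered and 141 CPM per kb in the lasered group. Havcr2 (65.0 and 54.9 CPM per kb) and Cd86 (59.3 and 65.5 CPM per kb) followed and overlapped with each other within each group. Within libraries, Havcr2 was above Cd86 per kilobase in 3 of 3 unlasered libraries and in 0 of 4 lasered libraries. Cd80 came next, with 22.7 CPM per kb in the unlasered and 14.8 CPM per kb in the lasered group. It stood clear of its neighbours in both. Cd274 (7.38 and 6.90 CPM per kb) and Cd200r1 (6.75 and 5.96 CPM per kb) overlapped again. In the unlasered group, Pdcd1lg2 (2.13 CPM per kb) and Lag3 (1.90 CPM per kb) could not be ordered. In the lasered group, Lag3 reached 5.18 CPM per kb and overlapped with Cd200r1, while Pdcd1lg2 (1.14 CPM per kb) overlapped with Cd40 (0.956 CPM per kb). Cd40 (0.0575 CPM per kb) and Pdcd1 (0.0254 CPM per kb) were lowest in the unlasered group. These overlapped in the unlasered group. Pdcd1 had the lowest mean after laser injury too, with 0.129 CPM per kb.

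**Figure D2:**
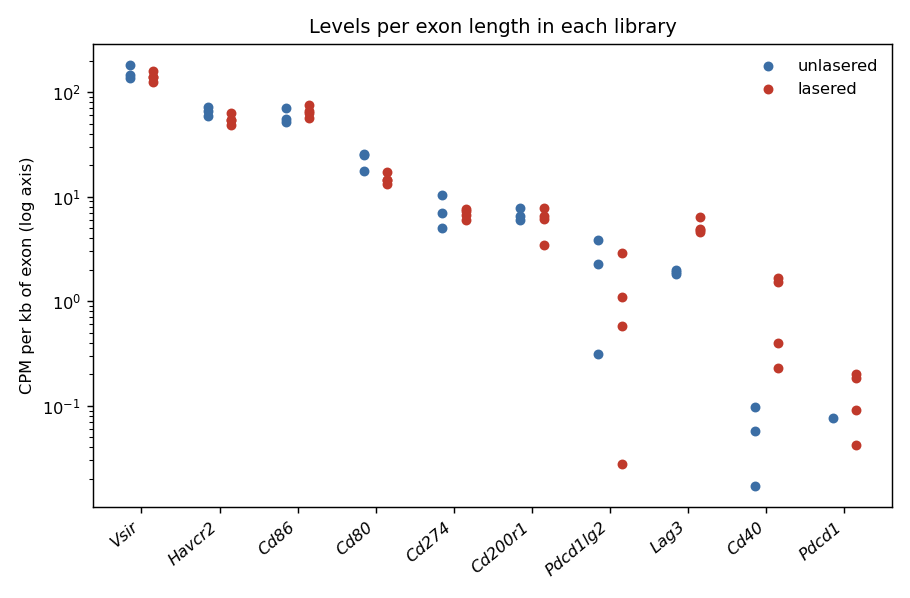
CPM per kilobase of exon on a log axis for the 10 genes, one point per library in the unlasered and lasered groups. Pdcd1 was 0 in the unlasered libraries 2 and 3, which a log axis cannot show. Vsir, Havcr2 and Cd86 lead in both groups. Pdcd1 has the lowest mean, but its points overlap with those of Cd40 without laser and of Pdcd1lg2 with laser.

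Cd40, the receptor through which antigen-presenting cells are activated by CD40L, lies on chr2:165055627-165072948 (GRCm38, plus strand). It was nearly absent without laser, with 0.196, 0.0584 and 0.333 CPM in the unlasered libraries 1 to 3, or 18 reads in all. The lasered libraries 1 to 4 held 5.66, 5.23, 1.35 and 0.781 CPM, or 576 reads in all. The groups did not overlap, and libraries 1 and 2 of the lasered group were well above libraries 3 and 4. The mean was 0.196 ± 0.137 CPM (SD, n = 3) without and 3.26 ± 2.55 CPM (SD, n = 4) with laser, a ratio of 16.6. The mean of the lasered libraries 1 and 2 was 27.8 times and that of the lasered libraries 3 and 4 was 5.44 times the unlasered mean. On log2(CPM + 1) the difference was 1.61 (SE 0.46, 95% interval 0.57 to 2.65) and did not pass the test (adjusted p = 0.0726 with limma). The gene entered the fit only through its lasered values. It passed in 4 of 11 alternatives. These were edgeR (log2 fold change 4.02, adjusted p = 0.0303) and DESeq2 (4.05, adjusted p = 4.11e-05) on the recovered reads, and 2 with limma. The limma ones were a pseudocount of 0.1 (3.20, adjusted p = 0.0374) and omission of the lasered library 4 (1.95, adjusted p = 0.0368). Limma-voom did not call it (3.80, adjusted p = 0.123). Limma without the lasered library 1, 2 or 3 had too few values above 1 CPM to test it.

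The lasered libraries 1 and 2, in which Cd40 was highest, were also the highest 2 of the 7 for 4 of 10 dendritic cell markers (Flt3, Cd209a, Ccr7 and Ccl22) and for monocyte markers such as Ccr2 and Chil3. Ccr7, a chemokine receptor of migrating dendritic cells, was at 74.8 and 68.5 CPM there, at 5.34 and 3.10 CPM in the lasered libraries 3 and 4, and between 0.0278 and 4.16 CPM in the unlasered libraries. Ccr2, the chemokine receptor of inflammatory monocytes, was at 81.5 and 128 CPM in the lasered libraries 1 and 2, at 19.7 and 7.57 CPM in the lasered libraries 3 and 4, and between 5.63 and 14.2 CPM without laser. Other markers of the lists did not have this order. Fscn1, the most abundant dendritic cell marker, was at 102 and 83.1 CPM in the lasered libraries 1 and 2, at 98.4 and 244 CPM in the lasered libraries 3 and 4, and at 222 to 270 CPM without laser. Plac8, a monocyte marker, was at 27.3 and 39.6 CPM in the lasered libraries 1 and 2 and at up to 47.0 CPM without laser. Summed over the whole list, the 10 dendritic cell markers reached 258, 272, 157 and 281 CPM in the lasered libraries 1 to 4 and 254 to 319 CPM without laser. Library 4 had the highest sum among the lasered ones, but Fscn1 alone gave 244 of its 281 CPM. Fscn1 also gave most of each unlasered sum, and only 102 and 83.1 CPM of the sums of the lasered libraries 1 and 2. The sums thus do not show the order of the other markers of the list. The sums of the 6 monocyte markers were 134, 182, 32.8 and 11.4 CPM in the lasered libraries 1 to 4 and 21.7 to 67.5 CPM without laser. Ccl22, a chemokine and the one dendritic cell marker of 8 tested that limma called higher, entered the fit only through its lasered values, with 7 reads over the unlasered libraries. It had 18.1, 36.4, 8.89 and 3.53 CPM in the lasered and 0.0292 to 0.196 CPM in the unlasered libraries. Of these 8 markers, 4 had an unadjusted p under 0.05 with limma, edgeR called 2 (Cd209a and Ccl22) and DESeq2 called 3 (Cd209a, Ccr7 and Ccl22). Cd209a, too, entered the fit only through its lasered values, with 0 to 0.0979 CPM without laser. Ccr7 reached 1 CPM in only 1 unlasered library. These calls are favoured by that selection. Of all genes tested, 22.7% had such a p, edgeR called 7.24% and DESeq2 called 13.3%. None of the 4 monocyte markers tested was called by limma or edgeR, with 1 at an unadjusted p under 0.05 and 1 (Ccr2) called by DESeq2. The part of these cells in the values of Cd40 was not tested.

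The ligand and the pathway below CD40 were examined next. Cd40lg, which encodes CD40L and is made mainly by activated T cells, was between 0 and 0.111 CPM in the unlasered and between 0 and 0.485 CPM in the lasered libraries, too low to test. Among 12 genes of CD40 signalling, all tested, limma called 1 higher (Relb) and none lower, with 3 at an unadjusted p under 0.05. edgeR called Relb alone, and DESeq2 called Relb higher and Traf6 lower. Of all genes tested, limma called 6.93%, edgeR 7.24% and DESeq2 13.3%, and 22.7% had an unadjusted p under 0.05 with limma. The counts of this list were near these shares. Relb, the partner of p52 in the non-canonical NF-kappaB pathway, had 33.3, 35.8 and 39.4 CPM in the unlasered and 49.5, 60.4, 49.7 and 53.1 CPM in the lasered libraries. All lasered libraries exceeded all unlasered ones, at a ratio of means of 1.47 (log2 fold change 0.54, SE 0.14, adjusted p = 0.0477 with limma). This call was close to the threshold and held in 5 of 16 alternative analyses, with adjusted p-values of 0.0905 to 0.141 when any library other than the unlasered library 3 was omitted. Nfkb2, which encodes the precursor of p52, was not called (log2 fold change 0.36, adjusted p = 0.205 with limma). The median log2 fold change of the 12 genes was 0.21.

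Of the B7 ligands of CD28, Cd86 was the more abundant in every library and neither passed the test. Cd80 (chr16:38455561-38496335, plus strand) had 93.0, 94.3 and 64.7 CPM in the unlasered and 53.9, 48.5, 53.3 and 63.6 CPM in the lasered libraries. The groups were separated by a narrow margin, since the unlasered library 3 was just above the lasered library 4. The means were 84.0 ± 16.7 CPM (SD, n = 3) and 54.8 ± 6.31 CPM (SD, n = 4), a log2 fold change of -0.59 (SE 0.17, 95% interval -0.98 to -0.21) with an adjusted p of 0.0732 with limma. The difference was negative in 16 of 16 alternative analyses and passed the threshold in 2 of them, with DESeq2 (adjusted p = 0.0253) and without the unlasered library 3 (log2 fold change -0.77, adjusted p = 0.0237 with limma).

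Cd86 (chr16:36603869-36666081, minus strand) had 258, 191 and 202 CPM in the unlasered and 209, 242, 275 and 234 CPM in the lasered libraries, which overlapped. The means were 217 ± 36.0 CPM (SD, n = 3) and 240 ± 27.1 CPM (SD, n = 4). The log2 fold change was 0.15, with a 95% interval from -0.18 to 0.48 (adjusted p = 0.604 with limma). The ratio of Cd86 to Cd80, both per kilobase, was 2.81, 2.05 and 3.16 in the unlasered and 3.92, 5.04, 5.21 and 3.72 in the lasered libraries. Each lasered library thus had a higher ratio than every unlasered library, which is given as a description without a test.

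Of the receptors of the B7 molecules, limma called the entry of Ctla4 higher and did not call Cd28. Ctla4, the inhibitory receptor for CD80 and CD86, had 44.8, 48.7 and 36.7 CPM in the unlasered and 78.1, 79.4, 80.6 and 82.3 CPM in the lasered libraries. The lasered libraries lay close together and all were above the unlasered ones. The means were 43.4 ± 6.12 CPM (SD, n = 3) and 80.1 ± 1.78 CPM (SD, n = 4), a ratio of 1.84 (log2 fold change 0.88, SE 0.13, 95% interval 0.57 to 1.18, adjusted p = 0.0106 with limma). Ctla4 is known best from T cells, whose markers were near zero in every library as given above. The part of T cells in its values was not tested. The value of Ctla4 includes reads listed jointly with Rpl18-ps1, a ribosomal protein pseudogene that lies within its span on the same strand. The share of these joint reads is not given, so the difference cannot be assigned to Ctla4 alone. Without both lasered libraries 1 and 2 the log2 fold change was 0.90 and the call was lost (adjusted p = 0.117 with limma). Cd28, the activating receptor, was low, with 4.41, 1.81 and 3.44 CPM in the unlasered and 2.18, 2.52, 1.63 and 0.539 CPM in the lasered libraries, and was not called (log2 fold change -0.65, adjusted p = 0.289 with limma).

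Neither ligand of the PD-1 axis was called, and Pdcd1 was too low to test in the fit. Cd274 and Pdcd1lg2 are neighbours on chromosome 19, where 22823 bases lie between the end of Cd274 and the start of Pdcd1lg2. The 100 bases before the start of transcription are given for the genes of this axis and for Havcr2, as RefSeq has them (GRCm38.p6), because these are the members in whose promoter window a motif bound by interferon regulatory factors or their partner PU.1 was found. RefSeq windows were at hand for 6 of the 10 members (Cd80, Cd274, Pdcd1lg2, Pdcd1, Havcr2 and Vsir). Capitals mark the matches, read 5′ to 3′ along the strand of the gene.
Cd274, chr19:29367338-29367437, plus strand: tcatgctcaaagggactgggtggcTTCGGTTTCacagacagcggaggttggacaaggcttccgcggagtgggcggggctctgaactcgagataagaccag
Pdcd1lg2, chr19:29410819-29410918, plus strand: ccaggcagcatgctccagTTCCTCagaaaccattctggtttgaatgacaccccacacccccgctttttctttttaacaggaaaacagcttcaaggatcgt
Pdcd1, chr1:94052554-94052653, minus strand: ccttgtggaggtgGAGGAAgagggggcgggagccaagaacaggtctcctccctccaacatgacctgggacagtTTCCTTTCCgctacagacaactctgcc
Havcr2, chr11:46454831-46454930, plus strand: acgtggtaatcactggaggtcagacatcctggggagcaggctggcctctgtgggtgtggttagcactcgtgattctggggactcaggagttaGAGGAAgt

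The windows searched ran from 250 bases before to 50 bases after the start, on both strands. Cd274 holds the core of the interferon-stimulated response element (GAAANNGAA) on the reverse strand at -76 to -68, which 8.56% of 32851 promoter windows hold. Pdcd1 holds an ETS-IRF composite motif (GGAANNGAA), bound by PU.1 together with an interferon regulatory factor, on the reverse strand at -27 to -19, as do 8.24% of the windows. The PU.1 core GAGGAA was found in 3 of the 6 member windows (Pdcd1lg2, Pdcd1 and Havcr2), and in 28.3% of all windows. A second match in Pdcd1 lies at 14 to 19 after the start and is not shown. The gamma-activated sequence (TTCNNNGAA) was searched too and was found in 0 of the 6 member windows and in 8.3% of all windows. No match overlaps another, and a match is a description of the sequence and not a binding site.

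Cd274 (chr19:29367455-29388095, plus strand), the ligand of PD-1 that is widely induced by interferon, had 25.0, 18.0 and 37.2 CPM in the unlasered and 24.1, 26.6, 27.5 and 21.9 CPM in the lasered libraries. The lasered libraries fell within the range of the unlasered ones. The means were 26.7 ± 9.70 CPM (SD, n = 3) and 25.0 ± 2.55 CPM (SD, n = 4). The log2 fold change was -0.04 (95% interval -0.56 to 0.48, adjusted p = 0.941 with limma). Its sign turned with the scaling, to 0.04 with median-of-ratios size factors. Cd274 shares 511 exon bases with the antisense gene AC119228.1, and the library kit does not keep the strand, so reads from these bases cannot be assigned to either gene.

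Pdcd1lg2 (chr19:29410919-29471161, plus strand), the other ligand of PD-1, varied widely between libraries of a group. It had 4.41, 0.613 and 7.50 CPM in the unlasered and 2.13, 5.66, 1.13 and 0.0539 CPM in the lasered libraries, the last from 2 reads. Groups overlapped over almost their whole range, with a log2 fold change of -0.68 (95% interval -2.21 to 0.84, adjusted p = 0.607 with limma). Its libraries were ordered as those of H2-Ab1 within both groups, the only member of the 10 for which this was so, and this order was found in 1.7% of the genes tested. The ratio of Cd274 to Pdcd1lg2 per kilobase ranged from 2.69 to 15.9 in the unlasered and from 2.54 to 220 in the lasered libraries. Rgmb, which encodes another binding partner of PD-L2, was not called (130 ± 22.6 and 103 ± 13.3 CPM, log2 fold change -0.32, adjusted p = 0.273 with limma).

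Pdcd1 (chr1:94038305-94052553, minus strand), the receptor of both ligands, was barely detected. The unlasered libraries held 3, 0 and 0 reads and the lasered libraries 17, 16, 8 and 3 reads, or 3 against 44 in all. In CPM these were 0.147, 0 and 0 against 0.385, 0.356, 0.174 and 0.0808, so that the unlasered library 1 lay above the lasered library 4. Pdcd1 was outside the fit for its low level, and a two-sided exact permutation test over the 7 libraries gave p = 0.114, where 0.0571 is the smallest value possible.

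Among the inhibitory receptors, Lag3 rose and Havcr2 did not pass the test. Lag3 (chr6:124904361-124911705, minus strand) encodes a CD4-related receptor that binds MHC class II. It had 3.87, 4.21 and 3.97 CPM in the unlasered libraries, from 79, 144 and 143 reads. The lasered libraries had 9.77, 10.2, 13.5 and 10.3 CPM, from 431, 459, 618 and 381 reads. The unlasered libraries were within a narrow range, and the lowest lasered library was 2.32 times the highest of them. The means were 4.01 ± 0.173 CPM (SD, n = 3) and 10.9 ± 1.70 CPM (SD, n = 4), a ratio of 2.72. On log2(CPM + 1) the fold change was 1.24 (SE 0.18, 95% interval 0.84 to 1.64, adjusted p = 0.00888 with limma).

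The rise of Lag3 did not follow the libraries with high class II genes. The mean was 9.99 CPM in the lasered libraries 1 and 2 and 11.9 CPM in the lasered libraries 3 and 4, 2.49 and 2.95 times the unlasered mean. Omitting any single library left an adjusted p between 0.0196 and 0.0368 with limma. Without both lasered libraries 1 and 2 the log2 fold change was 1.35, but the call was lost with 5 libraries remaining (adjusted p = 0.0994 with limma). Lag3 is known from activated T and NK cells. T cell markers did not exceed a sum of 3.38 CPM in any library. The 5 NK cell markers summed to 0.527 to 1.64 CPM in the unlasered and 1.66 to 5.61 CPM in the lasered libraries. Eomes was at the floor in every library. Klrb1c, the only one tested, had 0.305 to 1.26 CPM in the unlasered and 1.40 to 2.70 CPM in the lasered libraries. It was not called (log2 fold change 0.66, unadjusted p = 0.0268, adjusted p = 0.154 with limma). The part of T cells and of NK cells in the values of Lag3 was not tested.

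Partners of LAG-3 were expressed at very different levels. The class II genes, with H2-Ab1 as given above, had a median log2 fold change of 2.34 over 7 genes, yet none was called by limma or edgeR. There were 3 at an unadjusted p under 0.05 and 3 called by DESeq2 (H2-Aa, H2-Ab1 and H2-Eb1), where the shares over all genes tested were 22.7% and 13.3%. Cd74, the invariant chain, was at 1808, 2989, 252 and 72.8 CPM in the lasered and at 124, 43.8 and 245 CPM in the unlasered libraries (adjusted p = 0.286 with limma), and includes reads listed jointly with another gene. Fgl1, a soluble ligand of LAG-3, was not tested, with 0.111 to 0.245 CPM in the unlasered and 0.108 to 0.690 CPM in the lasered libraries. Lgals3, which encodes the LAG-3 binding galectin-3, was not called (log2 fold change 0.30, adjusted p = 0.860 with limma).

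Havcr2 (chr11:46454935-46481255, plus strand) encodes TIM-3, an inhibitory receptor that microglia also carry. It had 194, 159 and 178 CPM in the unlasered and 146, 133, 172 and 146 CPM in the lasered libraries. The lasered library 3 was above the unlasered library 2, so the groups overlapped. The means were 177 ± 17.4 CPM (SD, n = 3) and 149 ± 16.5 CPM (SD, n = 4), a log2 fold change of -0.25 (95% interval -0.54 to 0.05, adjusted p = 0.308 with limma). Per kilobase, Havcr2 was 29.4 to 38.9 times Lag3 without laser and 9.92 to 11.6 times Lag3 with laser. These ranges did not overlap, which follows from the rise of Lag3 given above and is not a further result.

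The ligands of TIM-3 were not called by limma or edgeR, and DESeq2 called Ceacam1 lower. Lgals9, which encodes galectin-9, was abundant, with 680, 622 and 535 CPM in the unlasered and 735, 767, 791 and 697 CPM in the lasered libraries. Every lasered library was above every unlasered one, with a log2 fold change of 0.29 (95% interval 0.03 to 0.56, adjusted p = 0.174 with limma). Ceacam1 ranged from 6.25 to 37.2 CPM in the unlasered and from 3.85 to 13.5 CPM in the lasered libraries (log2 fold change -1.25, adjusted p = 0.231 with limma). Hmgb1 had 78.9 ± 9.86 and 63.6 ± 3.86 CPM (log2 fold change -0.30, adjusted p = 0.224 with limma). Its unlasered libraries (67.7 to 86.4 CPM) were all above its lasered ones (58.0 to 66.6 CPM). Of all genes tested, 21.0% did not overlap between the groups, in either direction.

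Vsir (chr10:60346851-60372684, plus strand) encodes VISTA, a B7-related inhibitory molecule of myeloid cells, and was the most abundant member in every library. It had 685, 727 and 911 CPM in the unlasered and 696, 620, 702 and 800 CPM in the lasered libraries. The groups overlapped, with means of 774 ± 120 CPM (SD, n = 3) and 705 ± 73.8 CPM (SD, n = 4). The log2 fold change was -0.13 with a 95% interval from -0.44 to 0.18 (adjusted p = 0.631 with limma). Its binding partner Selplg (PSGL-1) was abundant too, with 1009 to 1029 CPM in the unlasered and 1023 to 1448 CPM in the lasered libraries (log2 fold change 0.15, adjusted p = 0.584 with limma). Igsf11 (VSIG-3), another partner, was at 0.685 to 7.27 CPM and 0.0891 to 1.36 CPM (log2 fold change -0.89, adjusted p = 0.351 with limma).

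Cd200r1 (chr16:44765736-44794978, plus strand), the inhibitory receptor for CD200, had 19.9, 26.1 and 21.7 CPM in the unlasered and 20.7, 21.6, 25.9 and 11.6 CPM in the lasered libraries. Only the lasered library 4 lay outside the range of the unlasered libraries. The means were 22.6 ± 3.19 CPM (SD, n = 3) and 20.0 ± 5.99 CPM (SD, n = 4). The log2 fold change was -0.22 (95% interval -0.79 to 0.36, adjusted p = 0.674 with limma). Cd200 was at 0.0876 to 0.361 CPM in the unlasered libraries. The lasered libraries 1 to 4 had 5.98, 4.28, 0.0871 and 0.0269 CPM, so that only libraries 1 and 2 lay above the unlasered range, and the gene was too low in too many libraries to be tested.

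**Figure D3:**
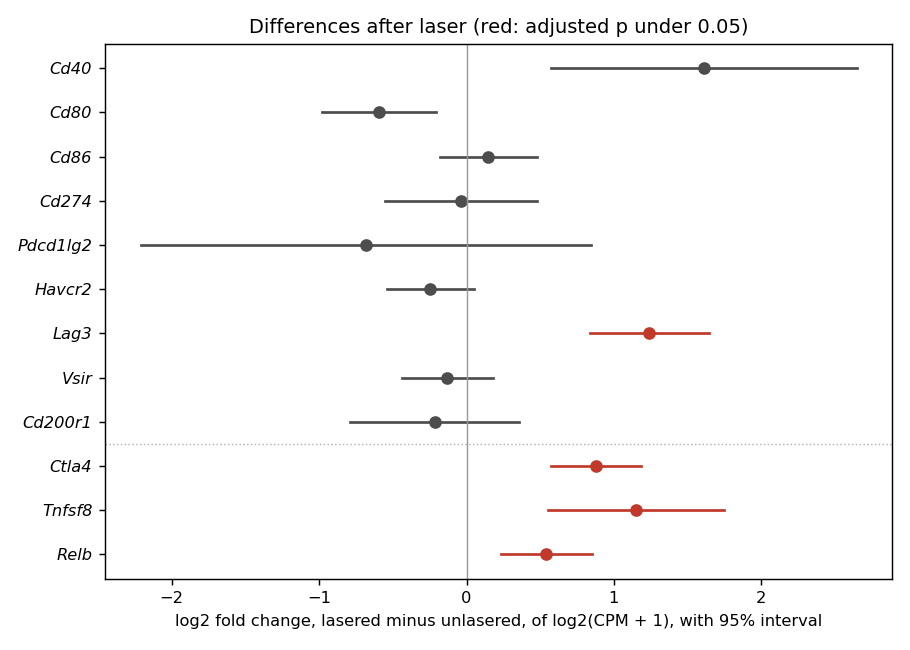
Log2 fold change on log2(CPM + 1), lasered against unlasered, with its 95% interval from limma for the 9 members tested and, under the dotted line, for Ctla4, Tnfsf8 and Relb. Red marks an adjusted p under 0.05, and the value of Ctla4 includes jointly listed reads. The interval of Lag3 runs from 0.84 to 1.64, and those of Cd40 and Cd80 exclude zero while their adjusted p-values are 0.0726 and 0.0732.

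Beyond the members, 85 further genes of these pathways were examined in 7 lists, and 68 of them were tested. Of these, limma called 3 higher (Ctla4, Tnfsf8 and Relb), 0 were called lower by limma or edgeR, and 65 were not called by limma, with a median log2 fold change of 0.09. The value of Ctla4 includes jointly listed reads, so its call cannot be assigned to Ctla4 alone. Over all genes tested, limma called 6.93%. At an unadjusted p under 0.05 there were 15 of the 68 in either direction, near the share over all genes given above (22.7%). DESeq2 called 6 higher (Ctla4, Tnfsf8, Relb, H2-Aa, H2-Ab1 and H2-Eb1) and 4 lower (Ceacam1, Cd200r4, Traf6 and Irf1), where it called 13.3% of all genes tested. Tnfsf8 encodes CD30L, a costimulatory ligand of the TNF family. It had 42.8, 27.0 and 60.2 CPM in the unlasered and 105, 85.3, 114 and 71.6 CPM in the lasered libraries. The groups did not overlap, and the ratio of means was 2.17 (log2 fold change 1.15, SE 0.26, adjusted p = 0.0372 with limma). This call was lost when any of the unlasered libraries 1 and 2 or the lasered libraries 1, 2 and 3 was omitted (adjusted p = 0.0774 to 0.0971 with limma).

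By list, 1 of 5 tested genes of the B7 and CD28 family (Ctla4, with jointly listed reads) and 1 of 7 tested genes of TNF family costimulation were called higher by limma. Over all genes tested, limma called 6.93%, edgeR 7.24% and DESeq2 13.3%, and 22.7% had an unadjusted p under 0.05 with limma. Among 19 tested inhibitory ligands and receptors none was called by limma or edgeR, with 4 at an unadjusted p under 0.05 and 2 called by DESeq2. None of 9 genes of inhibitory signalling, such as Ptpn6 and Inpp5d, was called by any of the 3 tools, and 0 had an unadjusted p under 0.05. Of 9 tested upstream regulators, among them Spi1 (PU.1), none was called by limma or edgeR, 2 had an unadjusted p under 0.05, and DESeq2 called 1 (Irf1). The 17 genes that could not be tested include the T cell receptors Icos, Tigit and Cd226, and the ligands Cd40lg, Tnfsf4 and Cd70.

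**Figure D4:**
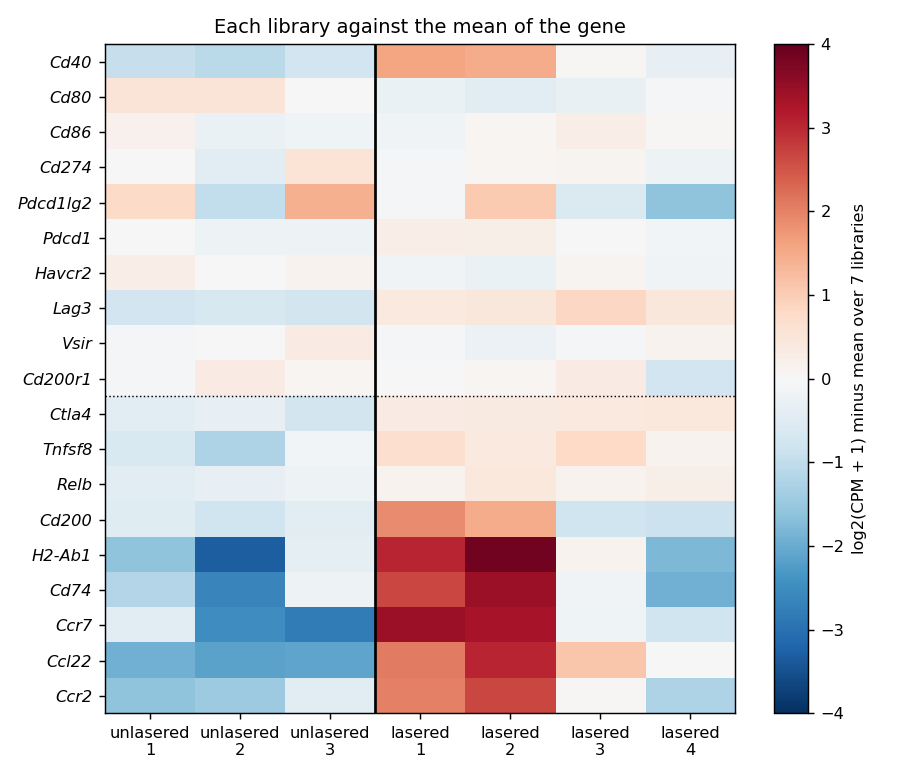
Log2(CPM + 1) of the 10 members and, under the dotted line, of 9 other named genes in each library, as the difference from the mean of the gene over the 7 libraries. Lag3 and Ctla4 are higher in all 4 lasered libraries, and the value of Ctla4 includes jointly listed reads. Cd40 and the class II genes are highest in the lasered libraries 1 and 2.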

How the data were processed

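RNA-seq values of 7 libraries were used, 3 unlasered and 4 lasered. The authors trimmed reads with cutadapt, removed duplicates with FastUniq, mapped with bowtie2, counted with HTSeq on Ensembl annotation version 90 and normalised, naming DESeq2. The processing notes of the submitters name GRCm38. The deposited values are headed TPM but are CPM: with a tolerance of 0.1 read, 100% of the values of each library were whole multiples of 1 read, and library totals were recovered from this step. CPM were used as deposited. CPM per kb were divided by the exon length in GENCODE M21 (GRCm38).

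Groups were compared with limma 3.58.1 (R 4.3.3, statmod 1.5.0) on log2(CPM + 1), with the trend and robust options of its empirical Bayes step. Genes had to reach 1 CPM in 3 or more libraries, which left 17496. Tests were two-sided with Benjamini-Hochberg adjustment over all 17496 genes and a threshold of 0.05. The procedure was also run on simulated counts with the same spread setting for every gene, and no result here rests on that run. Fold changes on this scale understate the change of low genes. Each library is a separate pool of mice, and nothing in the labels ties pools across groups. Alternatives were a pseudocount of 0.1, other filters, a replicate block, median-of-ratios scaling, edgeR 4.0.16, DESeq2 1.42.0 and limma-voom on recovered reads, and omission of each library. Omission of both lasered libraries 1 and 2 was chosen after seeing the data. The exact permutation test came from scipy 1.17.1, plots from matplotlib 3.10.9, and tables from pandas 2.3.3 and numpy 2.4.6 in Python 3.11.15.

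All members were described, together with their binding partners and those listed genes with an adjusted p under 0.05. Other genes named beside them, such as Nfkb2 and the markers of other cell types, were chosen after their values were seen. The members and the lists were chosen with earlier results of these data known. Of 40743 genes, 4492 include reads listed jointly with another gene.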

Additional observations from a re-analysis of the deposited data

Results flagged for a closer look

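Within the lasered group, the value of Lag3 in library 3 (13.5 CPM) stood apart from the other 3 libraries, which were between 9.77 and 10.3 CPM. The gap made up 0.866 of the range of the group. All 10 members were examined in this way in the 4 lasered libraries and 1 stood apart, where chance gives about 1 in 20. Without this library the log2 fold change of Lag3 was 1.14 (adjusted p = 0.0331 with limma).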

How the results depend on the processing

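Of all genes, 1213 were called, and 385 were called without a filter on low values, 652 at a minimum of 10 CPM, 2318 with DESeq2, 264 to 1248 when 1 library was omitted, and 24 without both lasered libraries 1 and 2. Of the members, 1 was called, and 2 were called with a pseudocount of 0.1, 2 with edgeR, 3 with DESeq2, 1 to 2 when 1 library was omitted, and 0 without both lasered libraries 1 and 2, where 1 had an unadjusted p under 0.05 with limma. The log2 fold change of Cd274 reversed to 0.041 with median-of-ratios scaling and ranged from -0.28 to 0.22 when 1 library was omitted, being positive without the unlasered library 3 or the lasered library 4. That of Cd200r1 ranged from -0.35 to 0.011 and was positive without the lasered library 4. Neither passed the test in any of these. Cd40 and Cd80, just short of the threshold, were called in 4 of 11 and 2 of 16 alternatives. Cd40 could not be fitted where too few libraries reached the minimum. The cause of these differences was not tested. Levels under 1 CPM, as for Cd40 without laser and Pdcd1, rest on few reads.

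Libraries of the 2 groups share numbers, but deviations of same-numbered libraries were not positively correlated (-0.18, -0.13 and -0.02), and 0 of 6 libraries correlated best with their own number, so the numbers were not taken as pairs. With a replicate block, 3 genes and 0 members were called (3 members at an unadjusted p under 0.05 with limma), Lag3 had a log2 fold change of 1.26 (adjusted p = 0.0914), and the values of Cd274 and Cd200r1 were 0.021 and 0.011.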
